A study of Canis lupus familiaris with 31 samples.

Results

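The comparison described here was made inside the normal range of serum triglycerides. It set 9 control Miniature Schnauzers with the higher fasting triglycerides, 66 to 93 mg/dl, against the 9 controls with the lower ones, 35 to 63 mg/dl. These 18 dogs were the controls of a series of 31, in which the other 13 dogs had abnormally high triglycerides (HTG). The groups follow the dog numbers, which run in order of falling triglycerides, so control_01 to control_09 made the higher and control_10 to control_18 the lower group. The dogs on either side of the boundary were at 66 and 63 mg/dl, and triglycerides averaged 79.0 ± 9.89 mg/dl (SD, n = 9) and 47.3 ± 9.94 mg/dl (SD, n = 9). The data are gene counts from RNA sequencing of whole blood, with 1 library per dog, so that each replicate was a separate animal. By the labels each group held 4 females and 5 males, and all 18 controls were neutered. Dogs in the higher group were 7 to 10 years old and those in the lower group 8 to 13 years old (two-sided exact permutation test over dogs, P = 0.248). The controls were privately owned pets recruited at a single veterinary hospital, kept on the diets their owners fed and fasted before sampling, and dogs with a suspected endocrine disease or on drugs that alter lipids were not enrolled. No dog was treated, so the comparison is one of naturally differing animals.

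Triglycerides circulate in lipoproteins made by gut and liver and are cleared when lipoprotein lipase, anchored on capillary endothelium, releases their fatty acids. Blood cells do not set this balance. They take up fatty acids and remnant lipoproteins, and neutrophils, monocytes, platelets and lymphocytes all carry receptors for lipids and for the cytokines and adipokines of fat tissue. Miniature Schnauzers are known for spontaneous HTG. The study asked which blood transcripts differ in HTG dogs, and the comparison within the controls asks whether transcripts already differ with triglycerides where no dog has HTG.

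Body condition differed between the groups as well. Its score, on a scale where higher means fatter, was 5.89 ± 1.05 (SD, n = 9) in the higher and 4.67 ± 1.00 (SD, n = 9) in the lower group (two-sided exact permutation test over dogs, P = 0.0413), so triglycerides and body condition cannot be fully told apart, and list counts with the score as a covariate are given where they differ. The controls had 14524659 to 41533599 counts each, and log10 depth did not differ between the groups beyond its spread (exact permutation test, P = 0.546), while TMM normalization factors averaged 0.949 ± 0.179 (SD, n = 9) in the higher and 1.08 ± 0.101 (SD, n = 9) in the lower group (exact permutation test, P = 0.0532). A split of the dogs by small RNA levels, found in the data, placed 7 higher and 6 lower controls on its low side and 2 and 3 on its high side (two-sided Fisher exact test, P = 1). Control_03, a dog of the higher group with 88 mg/dl, stood apart. Its 20 most abundant genes took 40.6% of its counts, its TMM normalization factor was 0.522 against 0.914 in the next dog of its group, and its score on the first principal component was 47.5 against 12.0. The first component held 41.6% of the variance of the 500 most variable genes and averaged 5.12 ± 18.2 (SD, n = 9) in the higher and -5.12 ± 11.1 (SD, n = 9) in the lower group (two-sided exact permutation test, P = 0.169). The second component differed by -2.69 over all 18 dogs (exact permutation test, P = 0.565). Without control_03 the first and second components differed by 5.58 and 0.37 (exact permutation tests, P = 0.269 and 0.929).

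No gene passed an adjusted P of 0.05 among 13692 tested with the quasi-likelihood test of edgeR. At an unadjusted P under 0.05 the test counted 1689 genes (12.3%), of which 1101 (8.04%) were more and 588 (4.29%) less abundant in the higher-triglyceride controls. The smallest adjusted P was 0.392. limma-voom also called no gene and counted 1496 at an unadjusted P under 0.05, whereas DESeq2 counted 2139 and called 2 rows without a symbol. The first, ENSCAFG00000013105, was higher by 0.57 (log2, DESeq2 adjusted P = 0.0495), with 35.7, 49.3 and 55.3 CPM (counts scaled to a common library size) as the lowest, median and highest dog of the higher group and 24.6, 29.6 and 43.9 CPM in the lower group. The second, ENSCAFG00000032689, was higher by 4.75 (log2, DESeq2 adjusted P = 0.0495), but it reached 158 CPM in control_03 alone, its medians were 3.34 and 0.624 CPM, and 5 of 9 higher dogs exceeded the median of the lower group. Among the tested genes, 0 had all 9 higher dogs above all 9 lower dogs and 0 had them all below (0% in each direction), so the groups overlapped in every gene named below. The count at an unadjusted P under 0.05 was 1360 (9.82%; 6.51% higher and 3.31% lower) without control_03 and 1125 (8.22%; 4.82% higher and 3.40% lower) with body condition score as a covariate, and no gene passed the adjusted P in either. A difference above 0 was found in 50.5% of genes, and in 50.2% without control_03. The direction of the surplus depended on the scaling: genes more abundant in the higher group made up 65.2% of those counted with TMM factors, 70.2% with relative log expression factors, 57.7% in limma-voom and 48.6% with upper quartile factors. Across all genes tested the median log2 difference was 0.00 with TMM and between -0.04 and 0.02 under the other scalings.

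In the following, levels are normalized CPM given as the lowest, median and highest dog of each group, and differences are log2 fold changes of higher over lower controls with their standard error. P-values are unadjusted and from edgeR. Every gene quoted with P under 0.05 had an adjusted P between 0.392 and 0.405, so these differences describe the 18 dogs and did not pass correction.

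Among B lymphocyte genes the differences lay mostly below 0, and none passed correction. Of 23 B cell and plasma cell markers, 19 were tested, 9 were lower, beside 4.29% of all genes, and 0 higher at P under 0.05, 17 lay below 0, and the median log2 fold change was -0.43 (quartiles -0.60 and -0.21), against 0.00 over all genes. FCER2, the low-affinity IgE receptor CD23 of mature B cells, had the smallest P of any gene with a symbol. It measured 21.4, 27.7 and 32.6 CPM in the higher and 26.0, 40.0 and 64.6 CPM in the lower controls, a difference of -0.61 ± 0.13 (P = 0.000196). All 9 higher dogs lay below the median of the lower group. CD72, an inhibitory coreceptor of the B cell receptor, measured 2.09, 2.51 and 4.07 CPM against 1.5, 5.20 and 8.76 CPM (-1.01 ± 0.27, P = 0.00136), and in all but control_13 and control_14 the lower dogs exceeded every higher dog. MS4A1, which encodes CD20 and defines the lineage, measured 8.81, 13.8 and 23.7 CPM against 10.9, 23.6 and 33.8 CPM (-0.56 ± 0.21, P = 0.0125). CD22, the sialic acid receptor that dampens B cell receptor signals, was lower by a similar size (-0.75 ± 0.28, P = 0.0128).

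Other B cell genes counted at P under 0.05, named here after their values were seen, included FCRLA, PAX5, BLK and CD79B, parts of the receptor complex or of the B cell program. The plasma cell genes JCHAIN (0.18, P = 0.64) and MZB1 (0.13, P = 0.76) were the 2 members with a difference above 0. Per dog, the mean log2 CPM of the 19 genes ran from 3.50 to 4.29 with a median of 3.97 in the higher and from 3.40 to 4.72 with a median of 4.59 in the lower group, and 0 of the 9 higher dogs exceeded the lower median. In whole blood, fewer B cells and less RNA per B cell cannot be told apart. The list counted 6 lower genes without control_03 (3.31% of all genes, median -0.37) and 6 with body condition as a covariate (3.40%, median -0.47). It counted 5 to 10 when any dog was left out, the fewest without control_11, where 1449 of all genes were counted, 934 of them higher. Within the low side of the split, where 3.63% of all genes were lower, 12 B cell genes were (median -0.56). Within the 5 dogs of the high side, with 2.42% of all genes lower, 0 were (median -0.38). With the mean of red cell markers as a covariate, a fit described further on in which 1.97% of all genes were lower, 4 B cell genes were lower and the median was -0.22. With triglycerides as a continuous slope in place of the groups, 1 B cell gene was lower, against 3.46% of all genes, and without the 4 dogs nearest the boundary 2 were, against 2.62% of all genes (median -0.39).

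Of the genes of MHC class II antigen presentation 13 of 15 lay below 0, and none passed correction. These proteins load peptides for display to helper T cells and are made by B cells, monocytes and dendritic cells. The list was assembled after IFI30 and DLA-DMB had been seen among the smallest P-values, so its count is a description of that pattern. Of 15 members, all tested, 10 were lower, beside 4.29% of all genes, and 0 higher, with a median of -0.34. IFI30, the lysosomal thiol reductase that unfolds antigens before loading, measured 29.8, 45.5 and 51.9 CPM in the higher and 45.9, 61.8 and 72.1 CPM in the lower controls (-0.47 ± 0.11, P = 0.000246). DLA-DMB, a chain of the peptide exchange factor DM, measured 38.3, 52.6 and 58.5 CPM against 52.9, 63.5 and 89.8 CPM (-0.43 ± 0.10, P = 0.000392). In both genes every higher dog lay below the lower median.

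DLA-DRA, the alpha chain of the DR molecule, measured 628, 742 and 901 CPM against 798, 978 and 1139.9 CPM (-0.35 ± 0.10, P = 0.00203). DLA-DQA1 was at -0.43 ± 0.11 (P = 0.000918) and DLA-DOA, a chain of the modulator DO that is mainly a B cell product, at -0.91 ± 0.25 (P = 0.00166). CIITA, the master transactivator of class II genes, measured 63.4, 93.9 and 123 CPM against 78.3, 123 and 147 CPM (-0.34 ± 0.12, P = 0.0103), whereas the invariant chain CD74 was at -0.18 ± 0.11 (P = 0.123). Of the promoter-binding regulators of class II genes, named after their values were seen, RFX5 was at -0.27 (P = 0.0494), RFXAP at -0.04 (P = 0.855) and RFXANK at 0.03 (P = 0.802). DLA class II genes are closely related and highly variable between dogs, so reads may be shared or lost among them. The count was 9 without control_03 (3.31% of all genes), 8 with body condition as a covariate (3.40%) and 8 to 10 with any dog left out, but 5 with triglycerides as a slope (3.46%) and 6 without the 4 dogs nearest the boundary (2.62%). It was 9 within the low side of the split (3.63%) and 1 within the high side (2.42%), where the median was -0.29, and 9 with the mean of red cell markers as a covariate (1.97%, median -0.25). Per dog, the mean log2 CPM ran from 5.59 to 6.02 in the higher and from 5.90 to 6.37 in the lower controls, and only control_14 of the lower group lay inside the range of the higher group.

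**Figure D1:**
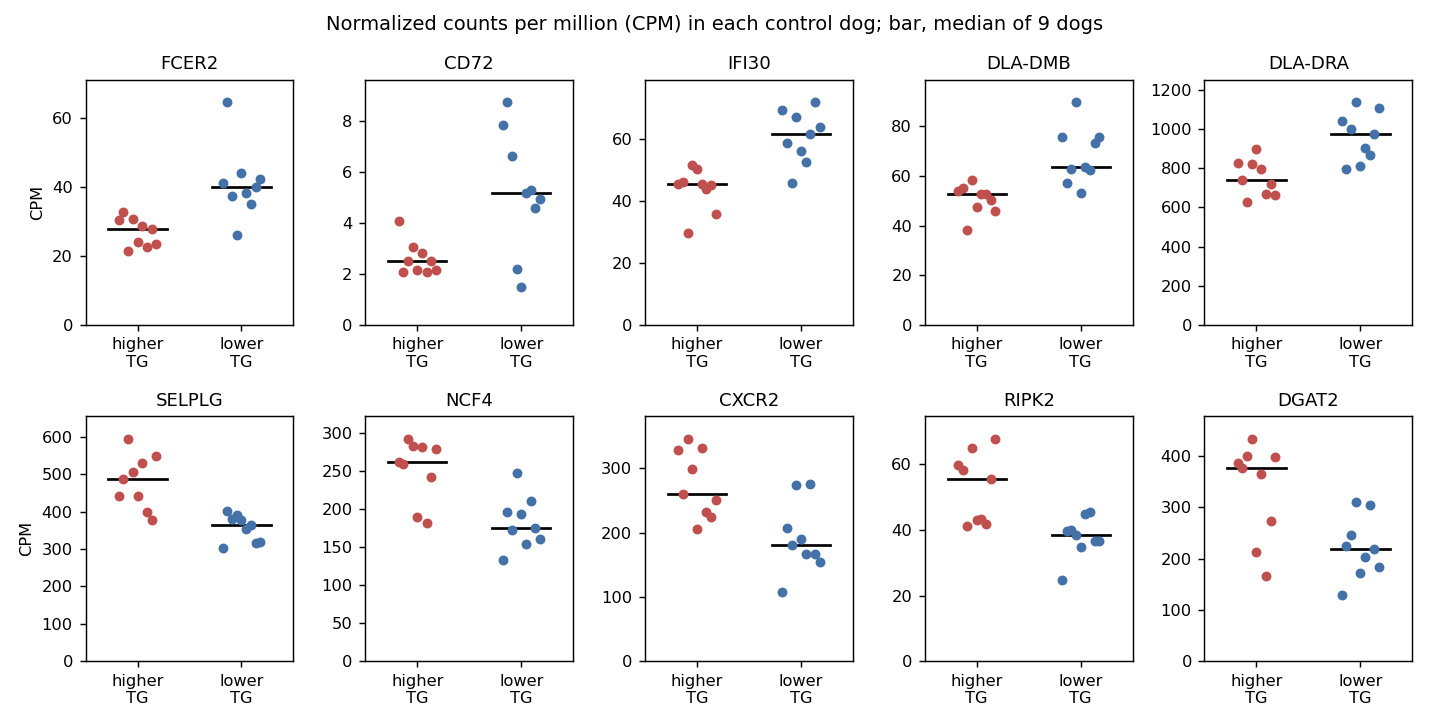
Normalized CPM (linear axis) of 10 genes in each control dog, with higher-triglyceride dogs in red, lower-triglyceride dogs in blue and a bar at the median of 9 dogs. FCER2, CD72, IFI30, DLA-DMB and DLA-DRA have lower medians and SELPLG, NCF4, CXCR2, RIPK2 and DGAT2 higher medians in the higher group, and the ranges overlap in all 10.

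Several genes of neutrophil function were more abundant in the higher-triglyceride dogs at an unadjusted P under 0.05. SELPLG, the selectin ligand PSGL-1 by which leukocytes roll on endothelium and bind platelets, measured 377, 487 and 595 CPM in the higher and 302, 363 and 403 CPM in the lower controls (0.43 ± 0.10, P = 0.00028), with all 9 higher dogs above the lower median. Among receptors for chemoattractants, a list drawn up after values were seen, 8 of 10 genes were tested, 4 were higher, beside 8.04% of all genes, and 0 lower, and the median was 0.42. CXCR2, the interleukin 8 receptor, measured 205, 259.9 and 346 CPM against 108, 182 and 276 CPM (0.52 ± 0.16, P = 0.00386). PTAFR, the receptor of platelet activating factor, measured 37.5, 50.7 and 106 CPM against 24, 33.1 and 52.5 CPM (0.63 ± 0.19, P = 0.00379). For both receptors all 9 higher dogs exceeded the lower median, and the top of the lower group reached into the higher one. The complement receptor C5AR2 (0.60 ± 0.17, P = 0.0027) and the ADP receptor P2RY13 (0.71 ± 0.20, P = 0.00193) made up the rest of the 4. As a receptor for ADP, P2RY13 is only loosely placed in a list of chemoattractant receptors. FPR2, a formyl peptide receptor, was the single member below 0 (-0.19, P = 0.503).

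The chemoattractant receptor count was also 4 without control_03 (6.51% of all genes) and with body condition as a covariate (4.82%), and lay between 4 and 6 with any dog left out. It was 3 with triglycerides as a slope (7.53%). Without the 4 dogs nearest the boundary 4 were higher and 1 lower, beside 636 and 358 (2.62%) of 13681 genes. The receptor count was 4 within the low side of the split and 0 within the high side, with medians of 0.43 and 0.44, where 3.82% and 4.67% of all genes were higher. NCF4, a cytosolic subunit of the phagocyte NADPH oxidase, measured 182, 262 and 293 CPM against 133, 176 and 248 CPM (0.47 ± 0.12, P = 0.00105). Of the 7 oxidase subunits, also listed after values were seen, 3 were higher, beside 8.04% of all genes, and 0 lower, while CYBB, the catalytic subunit, was at -0.22 (P = 0.13). The oxidase count was 2 with body condition as a covariate (4.82% of all genes). It was 1 without control_09 or control_15, where 992 and 809 of all genes were higher, and 5 without control_08 or control_13, where 1290 and 1327 were. The granule genes were less uniform. Of 29 neutrophil genes listed, 21 were tested and 5 were higher, beside 8.04% of all genes, with 0 lower (median 0.17), and the 5 included CXCR2, ITGAM and CSF3R, which are surface receptors, and PADI4, an enzyme of chromatin decondensation, rather than granule cargo. CSF3R, the receptor for granulocyte colony-stimulating factor, measured 3072, 4718 and 5652 CPM against 1866, 3208 and 5052 CPM (0.42 ± 0.18, P = 0.0281). The cargo genes LTF, CAMP, LCN2 and BPI, named after their values were seen, had P between 0.32 and 0.90 in both directions. With body condition as a covariate 4 were counted (4.82% of all genes) and the median of this list was -0.15. It was 0.48 without control_12, the lower dog with the highest mean of these genes. In that fit 12 were counted higher, beside 1189 of all genes. Without control_10, 3 were counted, beside 731 of all genes, and without control_09 the median was -0.14.

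RIPK2, the kinase downstream of the NOD receptors, measured 41.3, 55.6 and 67.7 CPM in the higher and 24.6, 38.5 and 45.3 CPM in the lower controls (0.48 ± 0.12, P = 0.001), and all 9 higher dogs were above the lower median. BIRC3, an inhibitor of apoptosis in the same pathway, measured 126, 169.9 and 222 CPM against 89.2, 134 and 141 CPM (0.43 ± 0.11, P = 0.00102). Of 30 inflammatory and NF-kB genes, 23 were tested, 5 were higher and 1 lower, beside 8.04% and 4.29% of all genes, 20 had a difference above 0, beside 50.5% of all genes, and the median was 0.29. The cytokine IL18 measured 68.1, 99.6 and 173 CPM against 41.6, 73.5 and 97.4 CPM (0.65 ± 0.20, P = 0.00433). The feedback inhibitor SOCS3 (0.70 ± 0.22, P = 0.00452) and the lipopeptide receptor TLR2 (0.37 ± 0.13, P = 0.00878) were also higher, and the chemokine CCL4 was lower (-0.92 ± 0.39, P = 0.0276). The higher count ran from 3 to 11 with 1 dog left out. It was 3 without control_09 or control_10, where 992 and 731 of all genes were higher, and 11 without control_13, where 1327 were. With body condition as a covariate it was 4 (4.82% of all genes).

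Of 43 type I interferon stimulated genes 34 were tested, 4 were higher, beside 8.04% of all genes, and 0 lower, 29 had a difference above 0 and the median was 0.21. Without control_07 the median was 0.0043, with 2 genes higher and 1 lower, in a fit that counted 2231 of all genes, 1398 of them higher. The antiviral genes RSAD2 (1.43 ± 0.64, P = 0.0381) and PLSCR1 (1.03 ± 0.46, P = 0.0358) had the largest differences of the 4, with ISG20 and IRF9 below them. RSAD2 reached 649 CPM in control_03 against medians of 82.0 and 30.5 CPM, and without that dog its difference was 0.75 (P = 0.2). PLSCR1 reached 102 CPM in control_09 against medians of 12.6 and 9.29 CPM. The count was between 0 and 7 with 1 dog left out. It was 0 without control_10, control_15, control_17 or control_18, where 731, 809, 775 and 786 of all genes were higher. It was 7 without control_16, where 1464 were. Of 20 glucocorticoid responsive genes, 19 were tested, with 2 higher, SGK1 and TSC22D3, beside 8.04% of all genes, 0 lower and a median of 0.15. The count was 3 with body condition as a covariate (4.82%) and ran from 0 to 6 with 1 dog left out. It was 6 without control_07 or control_13, where 1398 and 1327 of all genes were higher.

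Further genes among the 20 with a symbol and the smallest P belonged to no list. EHD1, which recycles endocytosed receptors, measured 90.1, 146 and 194 CPM against 86.0, 108 and 123 CPM (0.48 ± 0.12, P = 0.00054). LSM10, part of the particle that processes histone mRNA, the small transmembrane protein RELL1, the Rab regulator TBC1D2B, ANKRD2 and the muscarinic receptor CHRM3 were higher by 0.38 to 0.85. The deubiquitinases USP45 and OTUD3, the dynein assembly factor DNAAF5 and the Golgi adaptor GGA2 were lower by 0.76, 0.29, 0.43 and 0.39 on the log2 scale. All of these kept their sign and a P under 0.05 without control_03 and with body condition as a covariate.

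**Figure D2:**
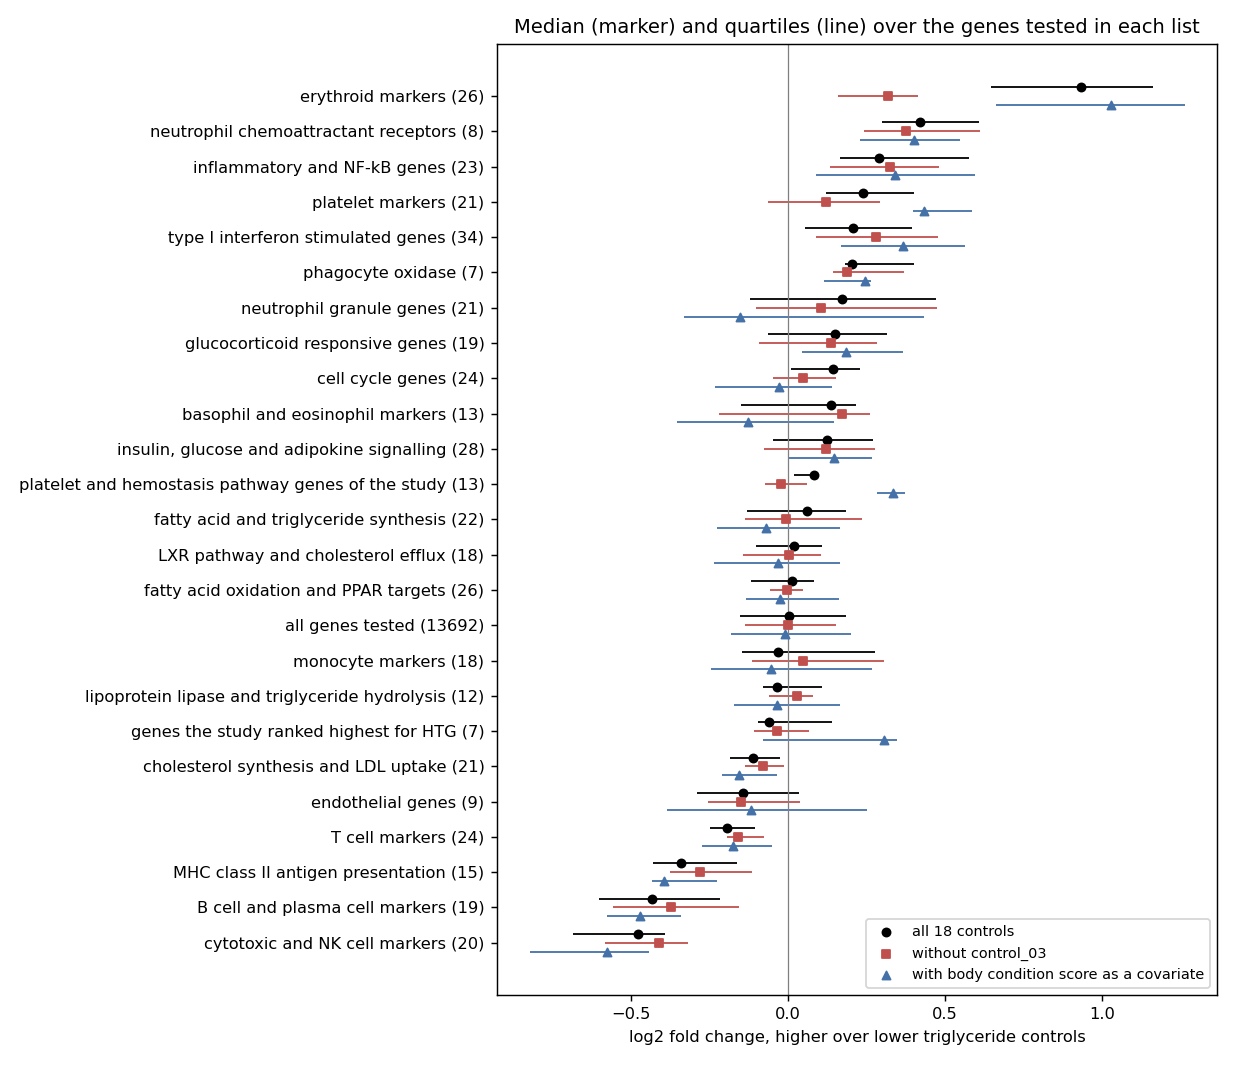
Median (marker) and quartiles (line) of the log2 fold changes of higher over lower controls in each gene list, with the number of genes tested in parentheses, for all 18 controls (black), without control_03 (red) and with body condition score as a covariate (blue). Erythroid markers have a median of 0.93 with and 0.32 without control_03, and the B cell list stays between -0.47 and -0.37 in the 3 settings.

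Red cell transcripts had the largest list median, and it rested on control_03. Of 31 erythroid markers 26 were tested, 9 were higher, beside 8.04% of all genes, and 0 lower, 25 were above 0, beside 50.5%, and the median was 0.93. ALAS2, the first enzyme of heme synthesis in red cells, measured 589, 1529 and 24748 CPM in the higher and 491, 1037 and 3709 CPM in the lower controls (1.58 ± 0.67, P = 0.0282). The highest value was that of control_03, and the next dog of its group had 3691 CPM. Without control_03 the difference of ALAS2 was 0.33 (P = 0.463), the list counted 1 higher gene (6.51% of all genes were higher), the mitochondrial iron importer SLC25A37, and the median was 0.32 with 25 of 26 members above 0. The summed level of the list was 1743, 3055 and 46820 CPM against 1413, 2515 and 7919 CPM. The list counted 6 genes with body condition as a covariate (4.82% of all genes), and 0 and 13 within the low and the high side of the split (3.82% and 4.67%), control_03 being on the high side. It was 18 without control_12, a fit in which 1189 of all genes were higher, against 1101 with all 18 dogs. Against triglycerides as a slope, with all 18 dogs, 22 of the 26 were counted higher, against 7.53% of all genes.

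Control_03 also decided several genes of other lists. TSPAN33 and TUBA8, listed as platelet markers, reached 1577 and 111 CPM in that dog and differed by 1.29 (P = 0.0338) and 1.02 (P = 0.0239) with it and by 0.48 (P = 0.282) and 0.49 (P = 0.132) without it. The platelet list had 3 of 21 tested genes higher, beside 8.04% of all genes, 0 lower and a median of 0.24, and 0 genes and a median of 0.12 without control_03 (6.51% of all genes). GP1BA, the defining platelet glycoprotein, was at 0.06 ± 0.37 (P = 0.871), with medians of 55.8 and 64.3 CPM. The platelet median was 0.43 with body condition as a covariate, with 4 genes higher, beside 4.82% of all genes. The part of red cell RNA in these results was not tested beyond a fit with the mean of the erythroid markers as a covariate, which counted 860 genes (6.28%) at P under 0.05.

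**Figure D3:**
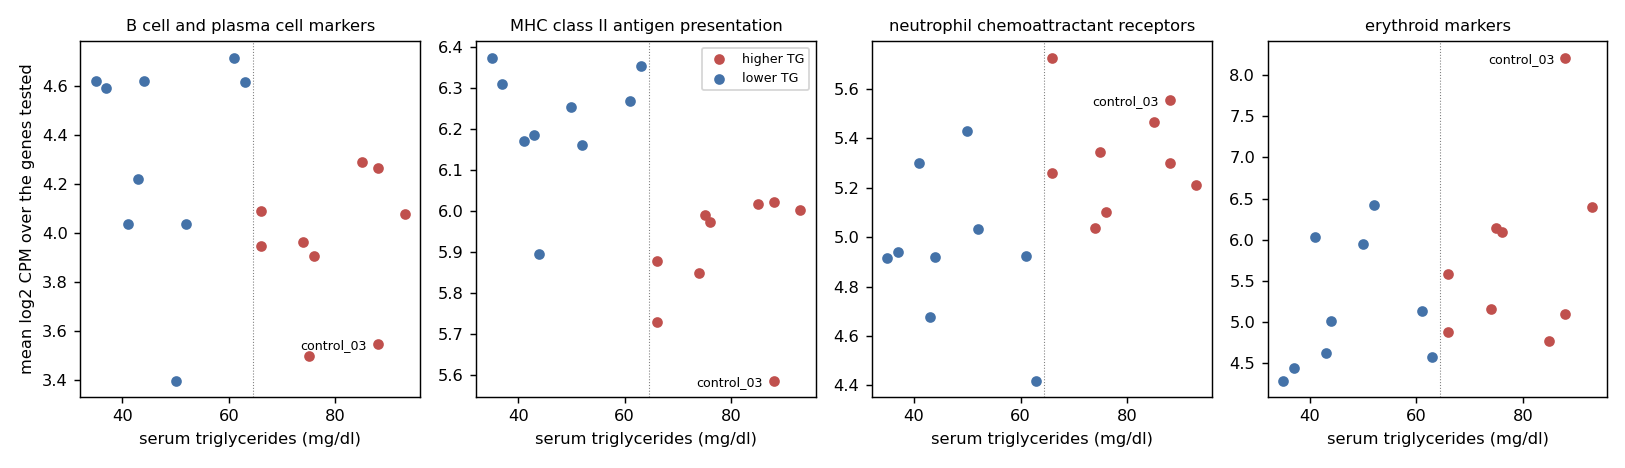
Mean log2 CPM over the tested genes of 4 lists in each control dog (y axis) against serum triglycerides in mg/dl (x axis), with higher controls in red, lower controls in blue and a dotted line between the dogs at 63 and 66 mg/dl. Control_03 reaches 8.21 in the erythroid panel where the next dog of its group has 6.40, and 0 of the 9 higher dogs exceed the lower median in the B cell and MHC class II panels.

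Of 24 genes of fatty acid and triglyceride synthesis 22 were tested, 3 were higher and 1 lower, beside 8.04% and 4.29% of all genes, and 11 of the 22 had a difference above 0. With body condition as a covariate 2 were higher and 1 lower, beside 4.82% and 3.40%. DGAT2, which adds the last fatty acid to make triglyceride, measured 166, 376 and 434 CPM in the higher and 128, 219.5 and 310.4 CPM in the lower controls (0.60 ± 0.19, P = 0.00527), with 7 of 9 higher dogs above the lower median. Its difference was 0.56 (P = 0.0102) without control_03, 0.55 (P = 0.0253) with body condition as a covariate, and 0.54 and 0.76 within the sides of the split. The lipin LPIN2 was higher by 0.36 ± 0.13 (P = 0.0126), and the acyl-CoA synthetase ACSL5 was at -0.26 ± 0.12 (P = 0.0421). ACSL1 was at 1.01 ± 0.43 (P = 0.0282) with and 0.46 (P = 0.171) without control_03.

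The cholesterol synthesis list had 19 of 21 tested genes below 0, with a median of -0.11 (quartiles -0.18 and -0.02). INSIG1, the sterol sensor (-0.29 ± 0.14, P = 0.0459), was the 1 member counted lower and FDFT1, the squalene synthase (0.52 ± 0.23, P = 0.034), the 1 counted higher, beside 4.29% and 8.04% of all genes, and neither was counted with body condition as a covariate or without control_03, which had the highest FDFT1 and the lowest INSIG1 of its group. Of 26 tested genes of fatty acid oxidation 1 was higher and 1 lower, beside 8.04% and 4.29% of all genes, with a median of 0.01. The uncoupling protein UCP2 (0.97 ± 0.44, P = 0.0409) was at 0.23 (P = 0.399) without control_03, and the short-chain dehydrogenase ACADS was at -0.31 ± 0.12 (P = 0.0193). Of 18 tested genes of the LXR pathway, the sterol exporter ABCG1 was lower (-0.46 ± 0.19, P = 0.0248), beside 4.29% of all genes, and 0 were higher, with a median of 0.02; ABCG1 measured 4.33, 8.91 and 12.2 CPM against 6.42, 12.1 and 13.3 CPM and was not counted with body condition as a covariate.

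Of 26 genes of the lipoprotein lipase system 12 passed the filter on low counts, and 3 had no count in any control. LPL itself did not pass, with 0 to 15 counts per dog in the higher and 0 to 25 in the lower group. FURIN, a protease that cleaves regulators of the lipase, was the only member counted higher among those 12 genes, at 217, 315 and 419.9 CPM against 176, 225 and 291 CPM (0.42 ± 0.14, P = 0.00775), beside 8.04% of all genes, and 0 were lower.

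Receptors for adipokines were among the insulin, glucose and adipokine genes, of which 28 of 29 were tested, 6 were higher, beside 8.04% of all genes, 0 were lower and 20 were above 0, beside 50.5% of all genes (median 0.12). LEPR, the leptin receptor, measured 1.31, 2.42 and 7.53 CPM in the higher and 0.723, 1.52 and 2.52 CPM in the lower controls (1.02 ± 0.35, P = 0.00818). The highest value belonged to control_03, and the difference was 0.76 (P = 0.0234) without it and 1.20 (P = 0.0126) with body condition as a covariate. NAMPT, an enzyme of NAD synthesis that is also secreted by fat, measured 401, 610.2 and 943 CPM against 313, 381 and 747 CPM (0.46 ± 0.19, P = 0.0231). The adiponectin receptor ADIPOR1 reached 4046 CPM in control_03 against medians of 325 and 266 CPM, and its difference of 1.35 (P = 0.0181) was 0.49 (P = 0.176) without that dog. FOXO3 likewise was at 0.68 (P = 0.0302) with and 0.27 (P = 0.141) without it. Of this list 3 genes were counted higher with body condition as a covariate (4.82% of all genes), and with the mean of red cell markers 1 was (4.31%). The list counted 3 genes without control_03 or control_10, where 902 and 731 of all genes were higher, and up to 8 with another dog left out.

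Of 24 tested T cell markers 0 were counted in either direction, 22 had a difference below 0 and the median was -0.19. Without control_07, 7 were counted lower, but that fit also counted more of all genes. It counted 2231, 1398 of them higher, against 1689 and 1101 with all 18 dogs. CD3D, which defines the lineage, measured 19.98, 26.1 and 43.4 CPM against 16.2, 33.3 and 44.2 CPM (-0.19 ± 0.18, P = 0.31). The cytotoxic and NK list had the lowest median, -0.48, with 17 of 20 tested members below 0, and it counted 1 gene lower, the interleukin 2 receptor chain IL2RB (-0.46 ± 0.22, P = 0.0474), and 1 higher, the cystatin CST7 (0.47 ± 0.19, P = 0.0233), beside 4.29% and 8.04% of all genes. GZMA, a granzyme that defines these cells, was at -0.73 with an interval from -1.75 to 0.29 (P = 0.149). With body condition as a covariate 2 cytotoxic genes were counted lower and 0 higher, beside 3.40% and 4.82% of all genes. Without control_07, 5 cytotoxic genes were counted lower (2231 of all genes counted, 1398 of them higher), and against the slope of triglycerides 6 were (3.46% of all genes). Without control_18, 0 were (1224 of all genes counted, 786 of them higher) and the median was -0.26. With the mean of red cell markers as a covariate 0 were with the same median (1.97%). Monocyte markers had 2 of 18 tested genes higher, CD68 and CTSB, and MRC1 lower, beside 8.04% and 4.29% of all genes, with a median of -0.03, and CSF1R was at -0.10 ± 0.12 (P = 0.407). MRC1 was not counted with body condition as a covariate. Of 13 tested basophil and eosinophil markers 2 were higher, CSF2RB and CEBPE, beside 8.04% of all genes, and 0 were lower, and 0 were counted with body condition as a covariate (4.82% of all genes higher). Endothelial genes (9 of 20 tested) and cell cycle genes (24 of 27 tested) had 0 members counted in either direction, with medians of -0.14 and 0.14. The cell cycle median was 0.05 without control_03, 0.03 without control_09, 0.29 without control_14 -0.03 with body condition as a covariate and -0.11 with that covariate and without control_03.

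The genes that the study had ranked highest for HTG were then set in 3 groups of dogs in a joint fit over all 31, with levels on the scale of that fit. No gene of 14366 passed an adjusted P of 0.05 in edgeR between the cases and either group of controls, and 1271 (8.85%) and 2086 (14.5%) genes were counted at an unadjusted P under 0.05 against the higher and the lower controls. The comparisons share dogs, and the list had been chosen on these cases and controls, so its values are a description. ARHGAP29, a GTPase-activating protein, measured 0.287, 4.75 and 18.7 CPM in the 13 cases, 0.807, 1.27 and 3.58 CPM in the higher and 0.216, 1.10 and 2.01 CPM in the lower controls. Its log2 fold change was 1.88 ± 0.45 for cases over higher controls, 2.53 ± 0.46 for cases over lower controls and 0.65 ± 0.48 between the controls (P = 0.181). The higher controls lay nearer to the lower controls than to the cases, and the lowest case lay within the range of the lower controls.

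The remaining members varied around that pattern. In the fit of the 18 controls, 7 of the 9 listed genes were tested and 0 were counted, with a median of -0.06. ST6GALNAC4, a sialyltransferase, had medians of 82.7, 58.0 and 51.6 CPM in cases, higher and lower controls, and STON2, an endocytic adaptor, 101, 68.4 and 70.7 CPM. MMRN1, the platelet protein multimerin, had 37.5, 15.6 and 19.7 CPM. The difference between the control groups was 0.18 ± 0.19 for ST6GALNAC4, 0.10 ± 0.20 for STON2 and -0.10 ± 0.31 for MMRN1. The gap between cases and either control group was the wider one in each of these 3 genes. In the other tested members, ARHGAP21, RTN4 and FZD7, the higher controls had the lowest median. FZD7 had 4.25, 1.88 and 3.15 CPM in cases, higher and lower controls, and its control groups differed by -0.35 ± 0.27. With body condition as a covariate, the difference of ARHGAP29 between the control groups was 1.08 (P = 0.00719), and the list median was 0.31.

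The platelet and hemostasis genes of the study, 13 of 14 tested, had 0 members counted between the control groups and a median of 0.08 with 11 members above 0. Without control_03 the median was -0.02 with 5 above 0, and without control_09 it was 0.18. THBS1, the platelet granule protein thrombospondin, measured 625, 1209 and 2256 CPM in cases, 492, 878 and 1199.9 CPM in higher and 408, 803 and 978 CPM in lower controls, and the control groups differed by 0.29 ± 0.23 (P = 0.212). The fibrinogen receptor chains ITGA2B and ITGB3 had nearly equal medians in the controls, 474 and 495 CPM for ITGA2B and 614 and 596 CPM for ITGB3, against 742 and 907 CPM in the cases. GP1BB, a chain of the von Willebrand factor receptor, had medians of 90.4, 47.5 and 49.0 CPM in the 3 groups. Between the control groups these 3 genes differed by 0.01 ± 0.28, 0.00 ± 0.24 and 0.08 ± 0.33. With body condition as a covariate 2 of the 13 were counted higher, THBS1 and the kinase DGKH, beside 4.82% of all genes, and the median was 0.33.

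**Figure D4:**
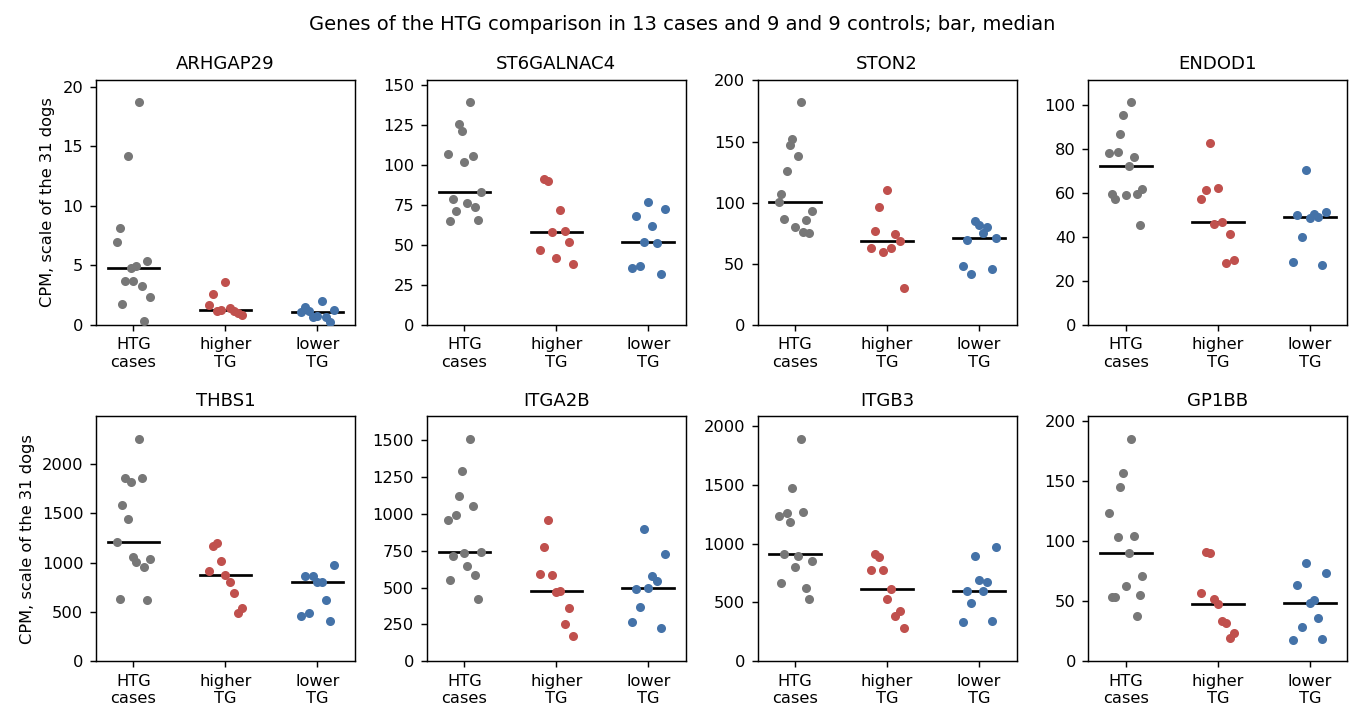
Normalized CPM (linear axes, scale of the 31-dog fit) of 8 genes of the HTG comparison in 13 cases (gray), 9 higher (red) and 9 lower controls (blue), with a bar at the median. Medians of cases lie above those of both control groups in all 8 genes, and the control medians of ITGA2B (474 and 495 CPM) and ITGB3 (614 and 596 CPM) lie close together.

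Last, the difference between the triglyceride groups was compared between the sexes with an interaction term. A single gene of 13692 passed an adjusted P of 0.05 (0.00730%), while 525 (3.83%) were counted at an unadjusted P under 0.05, and limma-voom called 1 gene and counted 410 (2.99%). The gene was STAG3, a cohesin subunit best known from meiosis. In females it measured 9.10, 16.8 and 25.9 CPM in the 4 higher and 1.33, 2.83 and 4.41 CPM in the 4 lower controls, and in males 2.77, 4.02 and 4.90 CPM in the 5 higher and 6.30, 9.86 and 13.5 CPM in the 5 lower controls. The groups did not overlap in either sex, and the direction was opposite. The log2 fold change was 2.60 ± 0.36 in females (edgeR adjusted P = 0.0146) and -1.24 ± 0.31 in males (edgeR adjusted P = 0.343), and the male minus female difference was -3.84 ± 0.47 (edgeR adjusted P = 0.00294, limma-voom adjusted P = 0.00571). With each dog left out in turn the difference stayed between -4.14 and -3.58 with adjusted P from 0.0013 to 0.0173.

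The next gene by P was ZCWPW1, a histone mark reader of meiosis, at -1.28 ± 0.27 with an adjusted P of 0.999. In RefSeq's annotation of the UU_Cfam_GSD_1.0 assembly it lies on the chromosome of STAG3 with 3 genes between them. Its medians were 17.5 and 8.39 CPM in higher and lower females and 9.83 and 12.7 CPM in higher and lower males. The order of the medians was that of STAG3, but the ranges of the males overlapped, 8.76 to 12.3 CPM in higher and 8.46 to 16.1 CPM in lower males. GATAD1, a chromatin protein, was at -0.63 and did not pass correction. In the HTG cases STAG3 measured 2.15, 3.52 and 12.9 CPM in 5 females and 3.47, 6.46 and 9.38 CPM in 8 males. These levels are on the scale of the 31-dog fit, and the ranges of the sexes overlapped. Across both triglyceride groups the sexes also overlapped in the controls, with 1.33 to 25.9 CPM in females and 2.77 to 13.5 CPM in males. The cases were not divided by triglycerides, so the pattern of the controls was not tested in them. STAG3 has related copies in other genomes. The study's alignment statistics class multiply mapped reads as unassigned, so reads shared with such copies may be missing from its counts. Whether this affected STAG3 was not tested.

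**Figure D5:**
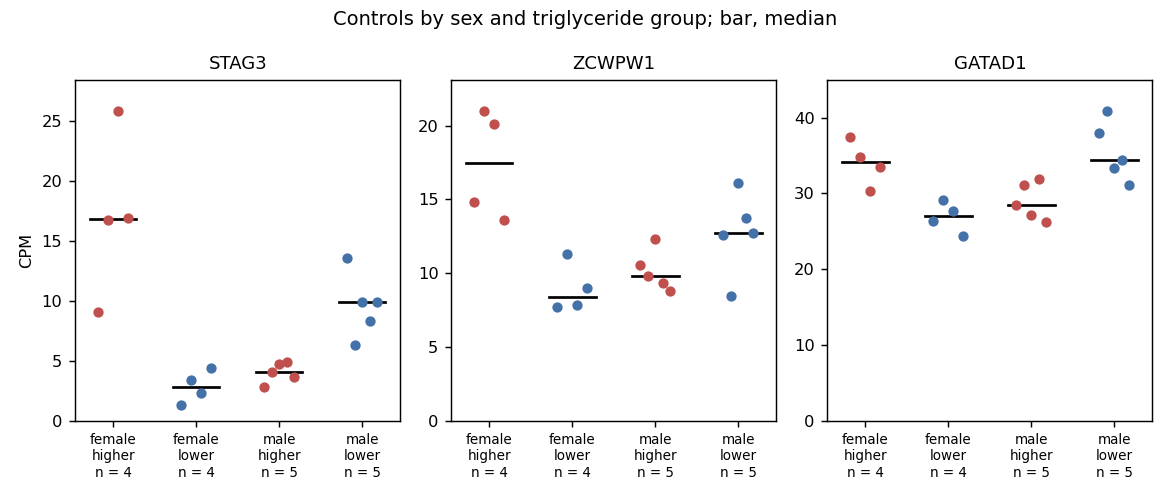
Normalized CPM (linear axes) of 3 genes with small interaction P, STAG3, ZCWPW1 and GATAD1, in each control dog, by sex and triglyceride group (n = 4 or 5), with a bar at the median. STAG3 is higher in the higher group among females (median 16.8 against 2.83 CPM) and lower among males (4.02 against 9.86 CPM), and only STAG3 passed correction.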

How the data were processed

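Whole blood RNA of 31 Miniature Schnauzers (13 HTG cases, 18 controls) was sequenced by the authors. The study's methods name a stranded total RNA kit that removes ribosomal RNA, whereas the labels give the molecule as polyA RNA and name another extraction kit, so it is unsure which RNA the small RNA rows used below represent. Per the labels and the study's methods, reads were checked with FastQC, trimmed with Trimmomatic and aligned to Dog10K_Boxer_Tasha with HISAT2, and pairs with an unmapped mate were left out of the counts. The counting program and annotation are not given in the sources used here. The deposited values are raw counts per gene (32704 rows, 18601 with a symbol, 7974 at 0 in every control). Sex came from the labels. Triglycerides, age and body condition came from the study's description of its dogs. Some of the controls shared a household, and p-values treat all dogs as independent.

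Higher and lower controls were compared with edgeR 4.0.16 (R 4.3.3; TMM factors, filterByExpr by group, glmQLFit and glmQLFTest, Benjamini-Hochberg over 13692 genes, threshold 0.05). Standard errors are the log2 fold change over the square root of F, and intervals are 95%. Principal components used the DESeq2 1.42.0 variance stabilizing transformation. Log2 CPM used a prior count of 2. Library and dog traits were compared with exact permutation tests over dogs. The study corrected for a pilot batch whose dogs no label names. A split of the 31 dogs by the mean of 402 small RNA rows, found in the data (10 dogs, 5 of them controls, with means from 1.34 up and the rest with means up to 1.08), stood in for it as an alternative. Other alternatives were DESeq2, limma-voom 3.58.1, other scalings and filters, covariates, 1 surrogate variable (sva 3.50.0), triglycerides as a slope and leaving out dogs. The erythroid mean as a covariate, the fit without control_03 with body condition, and the lists of MHC class II, phagocyte oxidase and chemoattractant receptor genes were chosen after seeing the data.

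The named genes were the 20 with a symbol and the smallest P, up to 4 of smallest P per list, the tested genes of the HTG and platelet lists of the study, and defining markers. The groups and all lists were chosen with earlier results of these data known. The scripts were tested on simulated counts. Gene symbols are those of the deposited table, and some genes are not reported here. Figures and tables of values used Python 3.11.15 with scipy 1.17.1.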

Additional observations from a re-analysis of the deposited data

Results flagged for a closer look

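In 21 of 258 groups of 9 dogs examined, 1 dog lay far from the others by Dixon's criterion, and chance alone does so in about 1 in 20 groups. In 9 of the 21 the dog was control_03. Its TMM factor was 0.522, its first principal component score 47.5 and its erythroid mean 8.21 (log2 CPM), and it had the most extreme log2 CPM of the higher controls in ALAS2 (14.6), ADIPOR1 (12.0), UCP2 (11.9), FOXO3 (9.27), FDFT1 (6.95) and, at the low end, DLA-DQA1 (7.58). Control_09 stood apart from the higher controls in C5AR2 (6.07) and PLSCR1 (6.68) at the high end and in DLA-DOB (3.31) and STON2 (4.97) at the low end. Control_02 had the highest small RNA mean (2.08) and control_05 the lowest EHD1 (6.50) of that group. Among the lower controls, control_14 was lowest in the MHC class II mean (5.90) and CIITA (6.29), control_12 highest in the neutrophil granule mean (8.13), control_13 highest in the lipoprotein lipase mean (4.76) and lowest in ABCG1 (2.70), and control_10 lowest in RIPK2 (4.63).

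Between the sexes, the difference between the triglyceride groups of controls in STAG3 differed by -3.84 on the log2 scale (interaction term in edgeR).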

How the results depend on the processing

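Of 80 named genes at an unadjusted P under 0.05, 75 kept their direction in all 38 alternatives. The exceptions were DLA-DOB, MS4A1 and CD22 among the 5 dogs on the small RNA split's high side, ALAS2 and UCP2 with 1 surrogate variable, and UCP2 with the erythroid mean as a covariate. The adjusted count was 0 throughout, dogs left out included (0 to 0), except for 2 genes in DESeq2. The unadjusted count of 1689 ran from 1123 (without control_10) to 2248 (without control_16) when 1 dog was left out. It was 2963 without a filter on low counts, 1125 with body condition, 973 with body condition and the split, 1034 with 1 surrogate variable, 994 without the 4 dogs nearest the boundary, 1038 and 997 within the low and high sides, 860 with the erythroid mean and 930 without control_03 and with body condition. The fits with fewer dogs have less power by construction; otherwise the cause was not tested.

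Of 912 list medians computed under alternatives, 10 moved by more than the spread between dogs. Cholesterol synthesis was at -0.57, LXR at 0.18, erythroid markers at 2.03 and phagocyte oxidase at 0.43 within the high side, where each group had 2 or 3 dogs. Fatty acid and triglyceride synthesis, 0.06 over all 18 dogs, was at -0.068 with body condition, -0.064 with body condition and the split, -0.060 without the 4 nearest dogs and -0.071 within the low side. The genes ranked highest for HTG were at 0.31 with body condition and 0.27 when control_03 was also left out. No paired analysis was possible because the 2 control groups share no dog number.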
